A study of Homo sapiens with 6 samples.

Results

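Interferon-stimulated genes are genes whose transcription rises when a cell senses interferon, and 39 of them were followed here in human colon cancer cells in which p53 was switched on and then off. They were the genes of a list of well-known interferon-induced genes that had probe sets carrying only their own symbol, 39 of 18701 genes measured on the arrays. The cells were HT29-tsp53, the colorectal adenocarcinoma line HT-29 with a murine p53 transgene bearing the temperature-sensitive V135A change, which all 3 groups carry. RNA was measured on 6 Affymetrix Gene ST arrays, in 3 groups of 2. In the p53 off group the cells were kept at 38 °C as controls. For p53 on they were held for 16 h at 32 °C, where the protein is active, and for p53 on then off they were given 6 h to recover after those 16 h. Each group had 1 array from experiment 1 and 1 from experiment 2. The labels name both 38 °C and 37 °C as the temperature at which p53 is off, and the source field of the recovery samples writes 32 °C for the last 6 h. No line without the transgene was used, so p53 state and temperature cannot be told apart in any comparison of the groups. Neither the promoter of the transgene nor the clonality of the line is given in the sources used here. The labels describe 1 dish moved to the lower temperature and say nothing of separate cultures beyond the experiment number, so p-values measure the spread between these samples.

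Interferons bound to their receptors activate JAK kinases, which phosphorylate STAT proteins. For type I and type III interferons, a complex that includes STAT2 and IRF9 binds a promoter element called the ISRE, while interferon gamma acts through the GAS element. The products detect foreign RNA, block viral entry and replication, and load peptides onto MHC class I, while USP18 limits signalling at the receptor. Many are also held at a basal level in unstimulated epithelial cells, and several, TAP1 and IRF9 among them, have been described as p53 targets in other cells. The study concerns the reversal of the p53 response, and the question here is what these genes did in that setting. Every value is a transcript level, given as a log2 signal, the median of a gene's probe sets on an array. A difference of 1 log2 unit is a 2-fold difference.

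The arrays followed their labels. CDKN1A, the p21 cell cycle inhibitor that p53 induces, stood at log2 4.83 and 4.99 in control, 8.32 and 7.91 at 32 °C, and 4.92 and 4.78 after recovery, the first value of each pair being from experiment 1 and the second from experiment 2, as throughout. The median signal of an array lay between 5.24 and 5.31. Of 11 colorectal epithelial markers, 10 were at or over log2 3.6, the level under which a signal was taken as dim, on all arrays, against 4 of 7 leukocyte markers and 3 of 6 fibroblast markers. Of the 39 interferon-stimulated genes, 25 were at or over log2 3.6 on every array, 11 were under it on some arrays, and 3 (IFIT1, IFI44L and RSAD2) were under it on all 6. Genes with a mean signal under log2 3.62, the lowest 25%, did not enter the tests. That left 14025 genes, among them 30 of the 39, and IFIT1, IFIT3, OAS2, MX2, IFI44, IFI44L, RSAD2, TRIM22 and XAF1 fell under the filter.

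Promoter sequences were looked up because the ISRE and GAS are what the definition of these genes rests on. RefSeq promoter windows (GRCh38.p14), from 250 bases before to 50 bases after a transcript start, were found for 29 of the 39 genes. The core letters of the ISRE, GAAA, any 2 bases and GAAA again, searched on both strands, were in at least 1 window of 22 of these 29 genes (75.9%), against 4.38% of 27305 genes with a window. The GAS letters TTCNNNGAA were in 9 of 29 (31%), against 9.38%. The 2 patterns can overlap, as they do in BST2. The windows of DDX58, IFI35, IRF9, OAS1, PSMB9, STAT2 and XAF1 held no such ISRE letters, and no window was at hand for DHX58, HLA-E, IFIT2, IFITM2, IRF7, MX2, OAS2, OASL, TRIM22 and USP18. A match is a run of letters and says nothing of binding. Stretches upstream of the start follow, 5′ to 3′ on the gene's strand, with the ISRE core letters on either strand in capitals. ISG15 is shown as the reference example of an ISRE, with IFI6, IFI27, B2M and BST2, which were lower in experiment 2, and TAP1, which had the largest difference between p53 on and p53 off.
ISG15: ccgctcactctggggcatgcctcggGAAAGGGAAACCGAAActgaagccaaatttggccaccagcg
IFI6: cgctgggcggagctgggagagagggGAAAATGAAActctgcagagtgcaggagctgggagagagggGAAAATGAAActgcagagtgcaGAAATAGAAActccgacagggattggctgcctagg
IFI27: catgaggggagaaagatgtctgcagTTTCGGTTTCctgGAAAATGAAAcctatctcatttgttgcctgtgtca
B2M: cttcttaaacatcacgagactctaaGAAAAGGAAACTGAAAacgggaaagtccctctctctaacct
BST2: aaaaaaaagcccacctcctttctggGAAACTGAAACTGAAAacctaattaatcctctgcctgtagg
TAP1: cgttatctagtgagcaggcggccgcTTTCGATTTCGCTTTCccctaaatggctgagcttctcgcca

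The ISG15 stretch lies at chr1:1013359-1013424 on the plus strand, with 2 overlapping matches from -113 to -98 relative to the start. IFI6 (chr1:27672251-27672373, minus strand) has 3 separate matches between -156 and -84, 2 of them inside a repeated stretch of the promoter. In IFI27 (chr14:94110603-94110675, plus strand) 1 match is on each strand, between -108 and -86. The overlapping pairs of B2M (chr15:44711348-44711413, plus strand), BST2 (chr19:17405720-17405785, minus strand) and TAP1 (chr6:32853798-32853863, minus strand) lie from -144 to -129, from -130 to -115 and from -134 to -119.

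After 16 h at 32 °C the interferon-stimulated genes had no common direction. Relative to p53 off, 17 of the 30 genes tested were above 0 and 13 below, with a median difference of 0.02, the same as the 0.02 over all genes tested. Single genes lay between -1.22 and 1.46. None of the 30 passed the test across all genes (limma, Benjamini-Hochberg adjusted p under 0.05), where 0.898% of all genes were called higher and 0.585% lower. At an unadjusted p under 0.05 there were 6 (HLA-E, IFI35, IFITM1, TAP1, TRIM21 and USP18), against 15.4% of all genes. With the experiment entered as a replicate block, which takes out what differs between the experiments, 4 genes were called higher (TAP1, IFI35, HLA-E and IFITM1) and 1 lower (USP18), against 5.18% and 6.28% of all genes, and 11 had an unadjusted p under 0.05, against 26.7%. The 4 calls higher are a larger share of 30 than the background share, and the 1 call lower is a smaller one. With the block and all 18701 genes tested, HLA-E (adjusted p = 0.102) and IFITM1 (adjusted p = 0.0939) were no longer called in limma, while TAP1, IFI35 and TRIM22 were called higher and USP18 lower, against 2.28% and 2.49% of all genes. By size alone, a rule chosen after seeing the data, the same 4 genes were at least 0.5 log2 units higher in both experiments and 2, USP18 and TRIM21, at least 0.5 lower, against 5.94% and 6.71% of all genes. An exact permutation test of 2 arrays against 2 cannot go below a p of 0.333.

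**Figure D1:**
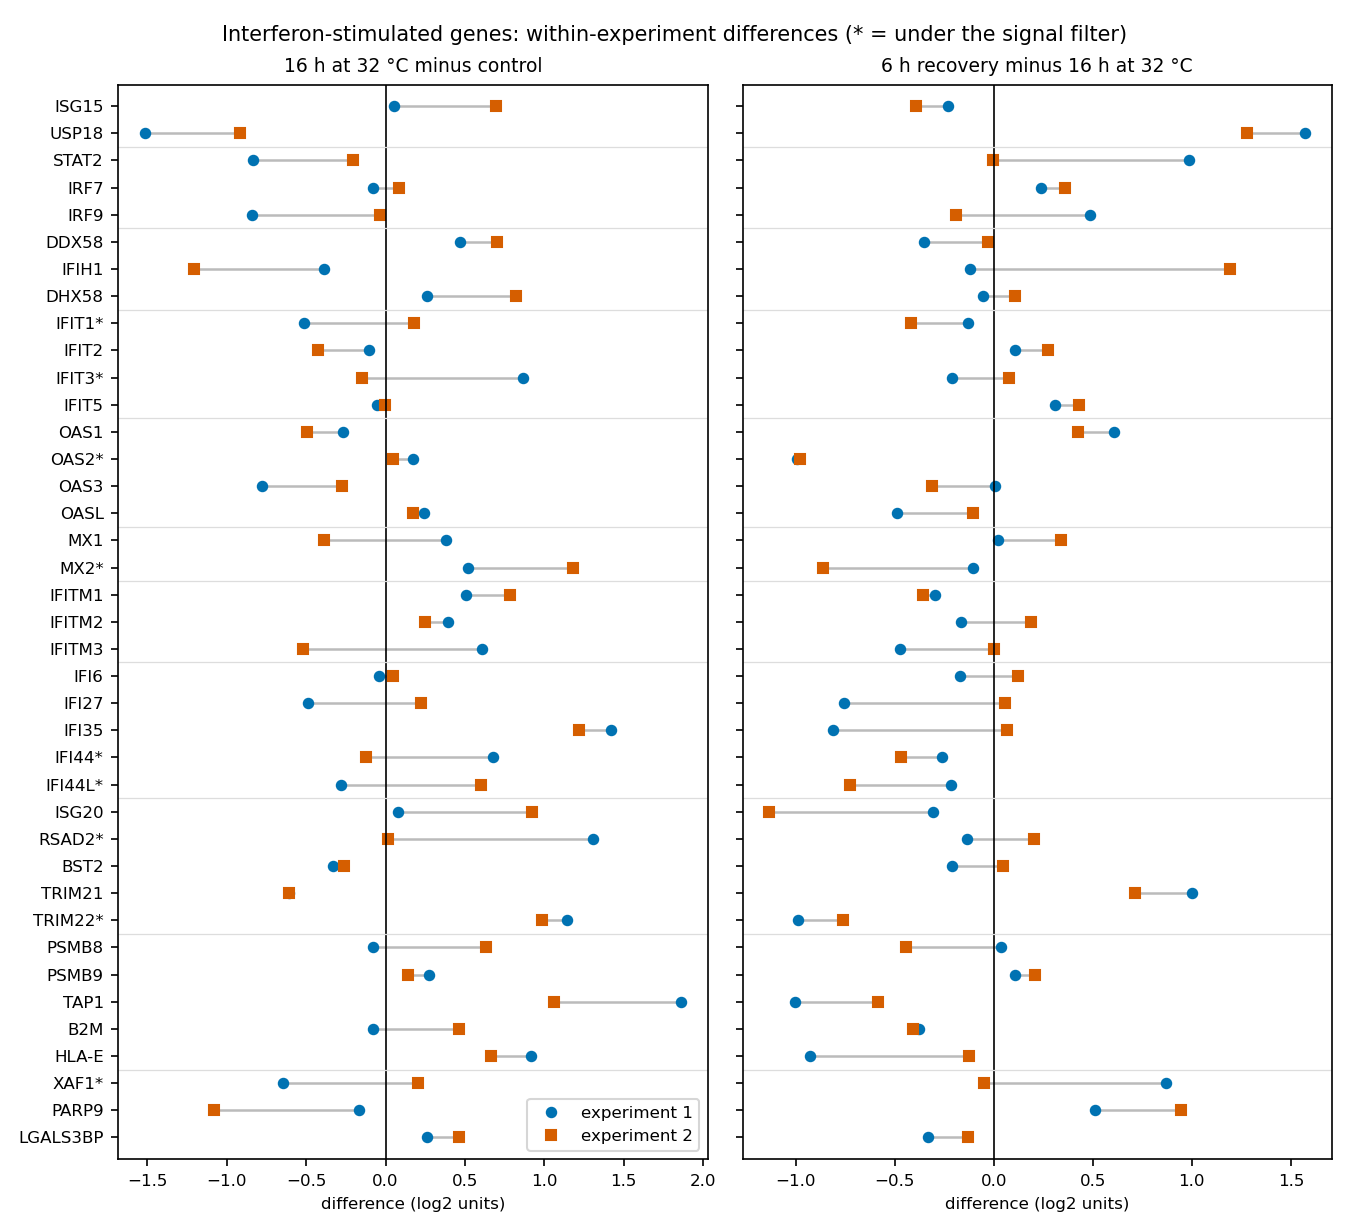
Difference in log2 signal for each of the 39 interferon-stimulated genes, within experiment 1 (circles) and within experiment 2 (squares), joined by a grey bar; the left panel is 16 h at 32 °C minus control and the right panel is 6 h of recovery minus 16 h at 32 °C. Genes are ordered by role and an asterisk marks those under the signal filter; TAP1, IFI35 and TRIM22 lie far to the right on the left panel, USP18 lies far to the left there and far to the right on the right panel.

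Antigen processing and presentation held 2 of the 4 genes called higher with the block, TAP1 and HLA-E. TAP1, a subunit of the transporter that carries peptides into the endoplasmic reticulum for MHC class I, stood at log2 4.82 and 5.58 with p53 off, 6.68 and 6.64 with p53 on, and 5.68 and 6.06 after recovery. Both arrays at 32 °C were above all others, and the recovery arrays lay between. The rise was 1.46 ± 0.29 log2 units (SE, n = 2 arrays per group), or 2.75-fold, with an adjusted p = 0.0717 from limma without the block and 0.00489 with it, and 42 of its 42 probe sets were higher. Of these 42 only 14 are distinct, since the table repeats probe sets of this region. HLA-E, a non-classical MHC class I molecule read by natural killer cells, stood at 7.38 and 7.16, then 8.29 and 7.82, then 7.37 and 7.70. Its 2 arrays at 32 °C were the highest of the 6, and all 22 probe sets (9 distinct) were higher. The difference was 0.79 ± 0.25 (1.73-fold, adjusted p = 0.19 in limma without the block, 0.0495 with it). HLA genes are alike in sequence, and 3 further probe sets that HLA-E shares with HLA-B and HLA-C were higher by 0.50. The other 3 of this role were not called: B2M, the invariant light chain of MHC class I, and the immunoproteasome subunits PSMB8 and PSMB9 differed by between 0.19 and 0.28.

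Among the IFI genes, IFI35 was called with the block and the other 2 tested, IFI6 and IFI27, were not. IFI35, an interferon-induced leucine zipper protein, stood at 5.05 and 5.00 with p53 off, 6.47 and 6.22 with p53 on, and 5.66 and 6.29 after recovery. The control arrays were the lowest in each experiment. The rise was 1.32 ± 0.26 log2 units (2.49-fold, adjusted p = 0.0693 in limma without the block, 0.00933 with it), from 1.42 in experiment 1 and 1.22 in experiment 2, and 5 of 7 probe sets were higher. With the mean of probe sets it was 0.73 (adjusted p = 0.11 in limma without the block, 0.0144 with it). IFI6, a small mitochondrial protein that inhibits apoptosis, differed by 0.00 and IFI27, another small membrane protein of that family, by -0.13.

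In the IFITM family of membrane proteins that block viral fusion, IFITM1 was called with the block. IFITM1 stood at 3.58 and 3.42, then 4.08 and 4.20, then 3.79 and 3.85, with both control arrays under the dim level. The groups did not overlap, and the rise was 0.65 ± 0.19 (1.57-fold, adjusted p = 0.175 in limma without the block, 0.0465 with it), with 3 of 5 probe sets higher. With dim probe sets left out the difference was 0.079, and with the mean of probe sets it was 0.13, neither called with or without the block. IFITM2 stood at 8.48 and 8.60, 8.88 and 8.85, and 8.71 and 9.04, a difference of 0.32 between on and off that was not called. IFITM3 was higher in experiment 1 (4.53 to 5.14) and lower in experiment 2 (4.49 to 3.97). These 3 genes are close paralogs, and probes may read more than one of them.

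**Figure D2:**
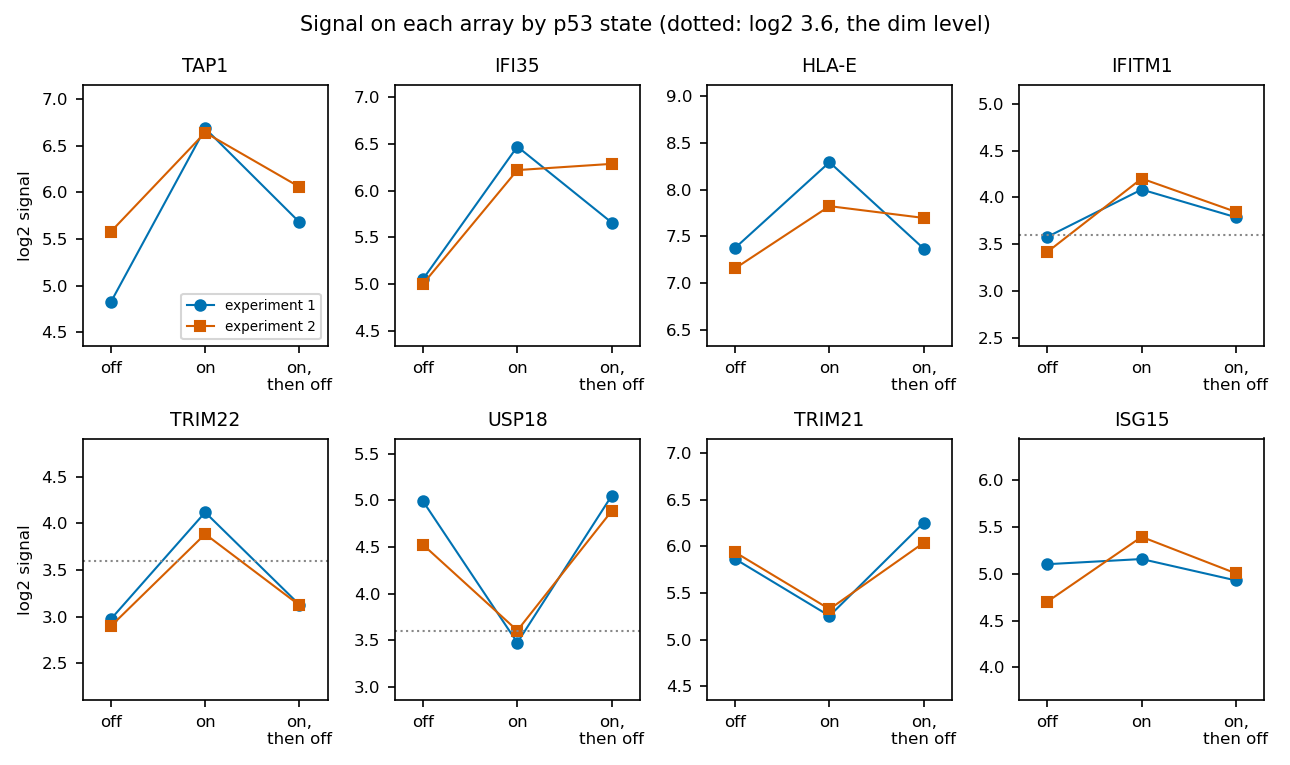
Log2 signal on each array (vertical axis) against p53 state (horizontal axis: off, on, on then off) for 8 interferon-stimulated genes, with experiment 1 as circles and experiment 2 as squares; the dotted line is log2 3.6, and panels have different vertical ranges. TAP1, IFI35, HLA-E, IFITM1 and TRIM22 are highest or near highest at 32 °C in both experiments, USP18 and TRIM21 are lowest there, and ISG15 differs between the experiments.

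ISG15 is a ubiquitin-like protein that is conjugated to other proteins after interferon, and USP18 is the protease that removes it and also binds the interferon receptor to restrain signalling. USP18 stood at 4.99 and 4.52 with p53 off, 3.47 and 3.605 with p53 on, and 5.05 and 4.88 after recovery. Both arrays at 32 °C were well under the other 4 and at the dim level, the first of them under it. The fall was -1.22 ± 0.23 log2 units (2.32-fold lower as measured, adjusted p = 0.0628 in limma without the block, 0.00681 with it), seen in 4 of 5 probe sets. A further 7 probe sets are shared with the near-identical USP41 and stood at 5.28 and 5.52, then 5.31 and 4.32, then 5.85 and 5.47, lower at 32 °C in experiment 2 and not in experiment 1. With those included, the USP18 difference was -0.51 and was not called (adjusted p = 0.305 in limma without the block, 0.102 with it). ISG15 stood at 5.10 and 4.70, 5.16 and 5.40, and 4.93 and 5.00. Its difference of 0.37 ± 0.22 (adjusted p = 0.502 in limma) came mostly from experiment 2, at 0.69 against 0.06 in experiment 1. All 4 of its probe sets were higher at 32 °C on average, by 0.05 to 0.83, and all 4 were lower in recovery than at 32 °C.

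Among the other antiviral effectors, the related ubiquitin ligases TRIM21, which is also a cytosolic antibody receptor, and TRIM22, a restriction factor, lay on opposite sides. TRIM21 stood at 5.86 and 5.94 with p53 off, 5.26 and 5.33 with p53 on, and 6.25 and 6.04 after recovery. Its 3 groups did not overlap, and the difference of -0.61 ± 0.20 was -0.61 in each experiment, but it was not called (adjusted p = 0.2 in limma without the block, 0.0586 with it). TRIM22, which fell under the signal filter, stood at 2.97 and 2.90, then 4.12 and 3.88, then 3.13 and 3.12. Only its arrays at 32 °C were over the dim level. With all 18701 genes tested, its difference was 1.07 ± 0.21 (adjusted p = 0.079 in limma without the block, 0.0225 with it). ISG20, an RNA exonuclease, stood at 4.49 and 4.24, 4.57 and 5.17, and 4.27 and 4.03, and its difference rested on experiment 2. BST2, also called tetherin because it holds budding virus at the cell surface, was 0.30 lower at 32 °C. It differed by -0.33 in experiment 1 and -0.26 in experiment 2, and was not called (adjusted p = 0.852 in limma without the block, 0.329 with it).

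The transcription factors that turn these genes on were not called in any comparison of the groups. STAT2 stood at 5.66 and 5.37, 4.82 and 5.16, and 5.81 and 5.16, a difference of -0.52 ± 0.28 (adjusted p = 0.455 in limma). Both arrays at 32 °C were under both control arrays, but the second recovery array was as low. IRF9, the DNA-binding partner of STAT2, stood at 5.84 and 4.86, 5.01 and 4.82, and 5.49 and 4.63. The difference was -0.84 in experiment 1 and -0.03 in experiment 2. IRF7, which drives the later wave of interferon alpha genes, stood at 5.37 and 5.36, 5.29 and 5.44, and 5.53 and 5.80, a difference of 0.00 ± 0.20.

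Of the sensors of foreign RNA, DDX58 (RIG-I, now RIGI) stood at 4.97 and 3.89, 5.44 and 4.59, and 5.09 and 4.56. It was higher at 32 °C in both experiments, by 0.47 and 0.70, yet the values of the 2 groups overlapped and the difference of 0.58 was not called (adjusted p = 0.613 in limma without the block, 0.0872 with it). IFIH1 (MDA5) stood at 4.52 and 3.57, 4.13 and 2.36, and 4.01 and 3.55, under the dim level on all 3 arrays of experiment 2. DHX58 (LGP2), a regulator of the other two, stood at 3.96 and 3.76, 4.22 and 4.58, and 4.16 and 4.68. Its control arrays were the lowest in each experiment, and the difference of 0.54 ± 0.26 was not called (adjusted p = 0.383 in limma).

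No tested gene of the IFIT, OAS and MX families was called. IFIT proteins bind viral RNA that lacks a host cap, OAS enzymes make the 2-5A signal that activates RNase L, and MX proteins are GTPases that trap viral particles. IFIT2 stood at 3.80 and 3.70, 3.70 and 3.28, and 3.81 and 3.55, and IFIT5 at 5.74 and 5.29, 5.69 and 5.29, and 6.00 and 5.71. The IFIT5 values at 32 °C overlapped those of control. Those of IFIT2 lay under both control arrays, with differences of -0.10 in experiment 1 and -0.42 in experiment 2. The IFIT2 arrays of experiment 2 at 32 °C and in recovery were under the dim level. OAS1 stood at 5.69 and 5.81, 5.43 and 5.31, and 6.03 and 5.74, and OAS3 at 6.06 and 5.64, 5.28 and 5.37, and 5.29 and 5.05. In each, both arrays at 32 °C were under both control arrays, by -0.38 and by -0.52 on average, without a call. MX1 went up in experiment 1 (4.03 to 4.41) and down in experiment 2 (4.17 to 3.78). MX2, under the filter, stood at 2.96 and 2.67, then 3.48 and 3.85, then 3.37 and 2.99, a difference of 0.85 (adjusted p = 0.213 in limma with all genes tested, 0.0856 with the block). PARP9, an ADP-ribosyltransferase partner of the ubiquitin ligase DTX3L, stood at 5.36 and 5.18, 5.19 and 4.11, and 5.70 and 5.05. LGALS3BP, a secreted glycoprotein, stood at 8.73 and 8.49, 8.99 and 8.95, and 8.66 and 8.82, with both arrays at 32 °C above the other 4 but a difference of 0.36 that was not called.

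The comparison of recovery with p53 on asks which of these levels turned back within 6 h. It shares the 2 arrays at 32 °C with the comparison above, so the 2 are not independent. The median difference of the 30 genes was -0.05, against 0.02 over all genes tested, and single genes lay between -0.79 and 1.43. None was called without the block in limma, against 0.143% of all genes higher and 0.285% lower, and 5 (ISG20, OAS1, TAP1, TRIM21 and USP18) had an unadjusted p under 0.05, against 12.3% of all genes. With the replicate block 2 were called higher (USP18 and TRIM21) and 0 lower, against 3.84% and 3.39% of all genes, while 7 had an unadjusted p under 0.05 in that fit, against 22.2%. By size, 3 genes (PARP9, TRIM21 and USP18) were at least 0.5 log2 units higher in both experiments and 1 (TAP1) at least 0.5 lower, against 5.77% and 4.98% of all genes. With the block and all 18701 genes tested, TRIM21 was no longer called (adjusted p = 0.064 in limma), and USP18 was called higher and OAS2 lower, against 1.1% of all genes in each direction.

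USP18, the brake on receptor signalling, rose by 1.43 ± 0.23 log2 units in recovery (2.69-fold as measured from the dim level, adjusted p = 0.0712 in limma without the block, 0.00608 with it), with 5 of 5 probe sets higher than at 32 °C. It came back to 5.05 and 4.88, above the control array of each experiment. With the probe sets shared with USP41 included, the rise was 0.85 (adjusted p = 0.163 in limma without the block, 0.0264 with it). TRIM21 rose by 0.86 ± 0.20 (1.81-fold, adjusted p = 0.138 in limma without the block, 0.0255 with it), in 7 of 8 probe sets, to levels above both control arrays. TAP1 was lower by 0.79 ± 0.29 after recovery, by -1.005 in experiment 1 and -0.58 in experiment 2, and was not called (adjusted p = 0.322 in limma without the block, 0.0627 with it). Among the other genes with a rise at 32 °C, HLA-E stood 0.93 lower in experiment 1 and 0.13 lower in experiment 2, and IFI35 stood 0.81 lower in experiment 1 and 0.07 higher in experiment 2. The HLA-E difference averaged -0.53 over the experiments, a larger fall than in any of its probe sets. All 22 of those were lower, with differences between -0.42 and -0.009. OAS2, a further OAS enzyme that fell under the filter, stood at 3.89 and 3.70, 4.07 and 3.75, and 3.07 and 2.77. Only its recovery arrays were dim. With all 18701 genes tested its difference from p53 on was -0.99 ± 0.23 (adjusted p = 0.184 in limma without the block, 0.0396 with it). PARP9 was higher by 0.51 and 0.94 in the 2 experiments, without a call (adjusted p = 0.531 in limma without the block, 0.0947 with it).

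Recovered cells were also set against cells never shifted. The median difference of the 30 genes was 0.12, against 0.03 over all genes, with single genes between -0.68 and 0.95. None was called in limma without or with the block, against 0.0285% of all genes higher and 0% lower without it and 0.207% and 0.392% with it. At an unadjusted p under 0.05 there were 2 (IFI35 and OAS3) without the block and 4 with it, against 5.32% and 13% of all genes. IFI35 remained above control by 0.61 in experiment 1 and 1.29 in experiment 2 (adjusted p = 0.776 in limma without the block, 0.13 with it). OAS3 was lower by 0.77 and 0.58 (adjusted p = 0.876 without the block, 0.185 with it). These were the only genes of the 30 at least 0.5 log2 units from control in both experiments, against 1.93% of all genes above and 2.4% below.

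More of the genes were called between the 2 experiments than between any p53 states, and the same order held over all genes tested. The comparisons are unlike, since the p53 states were compared with 2 arrays against 2. In the fit with the block, the more alike of the fits, 5 of the 30 were called between p53 on and off. Experiment 2 was set against experiment 1 in a fit that also held the group, with 3 arrays in each. No label says what the number stands for, so this describes these 2 experiments alone. Of 30 genes, 8 were called lower in experiment 2 (IFI6, IFI27, B2M, BST2, DDX58, IFIH1, PSMB8 and IRF9) and 0 higher, against 9.94% and 2.72% of all genes, and 11 had an unadjusted p under 0.05, against 27.8%. IFIH1 and PSMB8 passed the signal filter only through experiment 1, with means of 4.22 and 4.30 there and 3.16 and 3.53 in experiment 2. Their place in these counts thus depends on the experiment in which they were high. In 10 of the 30, every array of experiment 2 was under every array of experiment 1, against 15.1% of all genes, and in 0 the reverse held, against 8.33%. The median was -0.20, against -0.02 over all genes, with 22 genes below 0 and 8 above. An exact permutation test of 3 arrays against 3 cannot go below a p of 0.1.

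IFI6, the inhibitor of apoptosis whose promoter carries 3 of the ISRE matches shown above, stood at 7.66, 7.62 and 7.45 in experiment 1 and at 4.78, 4.82 and 4.94 in experiment 2, in the order off, on and on then off. The experiments were far apart, and within each the p53 states lay close together in this median of probe sets. The fall was -2.73 ± 0.15 log2 units (SE, n = 3 arrays per experiment), or 6.62-fold, with an adjusted p = 0.000119 in limma, the fourth lowest difference of 14025 genes. IFI27, its relative, stood at 6.83, 6.34 and 5.58 against 3.70, 3.93 and 3.99. Within experiment 1 control was highest and recovery lowest, while those of experiment 2 lay just over the dim level. The difference was -2.38 ± 0.25 (5.2-fold lower, adjusted p = 0.00103 in limma), the ninth lowest. Both genes were lower in 6 of 7 probe sets.

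B2M, needed for every MHC class I molecule to reach the surface, stood at 8.65, 8.56 and 8.18 in experiment 1 and 6.42, 6.88 and 6.47 in experiment 2, lower in 4 of 4 probe sets. Every array of experiment 1 was far above every array of experiment 2. The difference was -1.88 ± 0.16 (3.67-fold lower, adjusted p = 0.000516 in limma). The immunoproteasome subunit PSMB8 stood at 4.34, 4.26 and 4.30 against 3.25, 3.89 and 3.44, a difference of -0.77 ± 0.17 (adjusted p = 0.0199 in limma). Of its 3 arrays of experiment 2, 2 were under the dim level, so this difference is partly below it. PSMB8 was not among the genes called when dim probe sets were left out. PSMB9, its partner in the same protease, stood at 4.03, 4.30 and 4.41 against 4.33, 4.47 and 4.68, TAP1 at 4.82, 6.68 and 5.68 against 5.58, 6.64 and 6.06, and HLA-E at 7.38, 8.29 and 7.37 against 7.16, 7.82 and 7.70. None of these 3 was called. BST2 stood at 6.84, 6.51 and 6.30 against 5.73, 5.47 and 5.52, a difference of -0.97 ± 0.14 (1.96-fold lower, adjusted p = 0.00428 in limma).

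**Figure D3:**
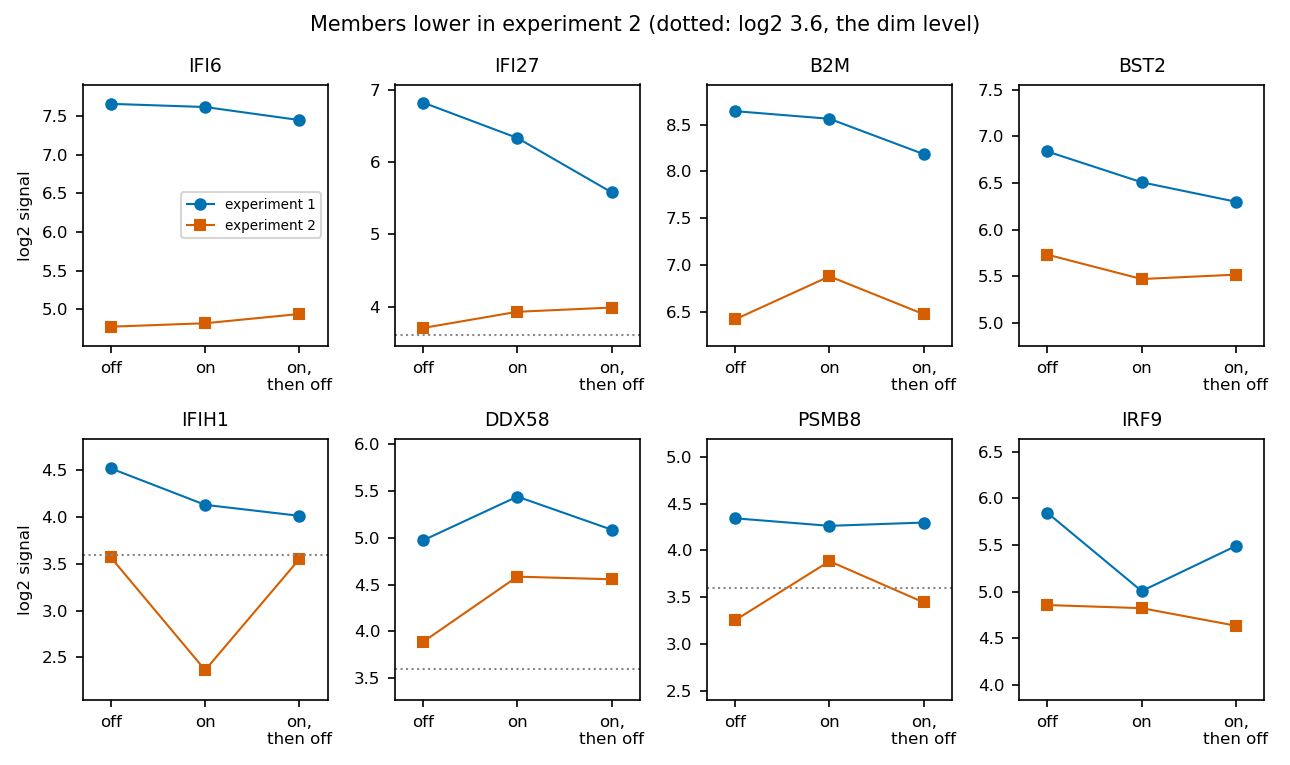
Log2 signal on each array (vertical axis) against p53 state (horizontal axis: off, on, on then off) for the 8 interferon-stimulated genes called lower in experiment 2, with experiment 1 as circles and experiment 2 as squares; the dotted line is log2 3.6, and panels have different vertical ranges. The experiment 2 line lies under the experiment 1 line in every panel, by the widest margin for IFI6, IFI27 and B2M.

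The sensors DDX58 and IFIH1 were lower too, by 0.83 ± 0.16 (adjusted p = 0.0114 in limma) and 1.06 ± 0.23 (adjusted p = 0.0187). For IFIH1 all 3 arrays of experiment 2 were dim, so that difference is partly under the level at which signals were taken as measured, and DDX58 and IFIH1 lost their calls when dim probe sets were left out. IRF9 was lower by 0.68 ± 0.18 (adjusted p = 0.0429 in limma), mean 5.45 ± 0.42 (SD, n = 3) against 4.77 ± 0.12, and its call depended on the gene summary. Each group has 1 array per experiment, so in this fit leaving out an array takes its whole group out of the comparison. Without the control or the recovery group neither IRF9 nor PSMB8 was called. IFI6, IFI27, B2M, BST2, DDX58 and IFIH1 were called whichever of the 3 groups was taken out. IFI44, which fell under the filter, stood at 3.64, 4.32 and 4.06 against 2.78, 2.66 and 2.19, and with all genes tested differed by -1.46 ± 0.21 (adjusted p = 0.013 in limma). Of the 8 genes called, 6 had ISRE core letters in their window, a share like that of all members with a window (22 of 29).

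Other features also moved with the experiment number. The summed log2 signal of the 11 epithelial markers lay between 93.8 and 96.2 in experiment 1 and between 88.4 and 92.5 in experiment 2. Of the 10 tested, 4 (EPCAM, KRT19, KRT20 and LGALS4) were called lower in experiment 2, against 9.94% of all genes. The list was mixed, with 8 of the 10 lower and 2 higher, CDX1 by 0.38 and VIL1 by 0.22, neither called. The 7 leukocyte markers summed to 34.3 to 35.9 and 34.4 to 35.5, and the 6 fibroblast markers to 23.9 to 24.2 and 24.2 to 25.5, with 0 called. The array medians were 5.28 to 5.31 in experiment 1 and 5.24 to 5.27 in experiment 2. The part of these in the difference was not tested. Fewer cells of a kind and less RNA per cell cannot be told apart in such bulk samples.

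**Figure D4:**
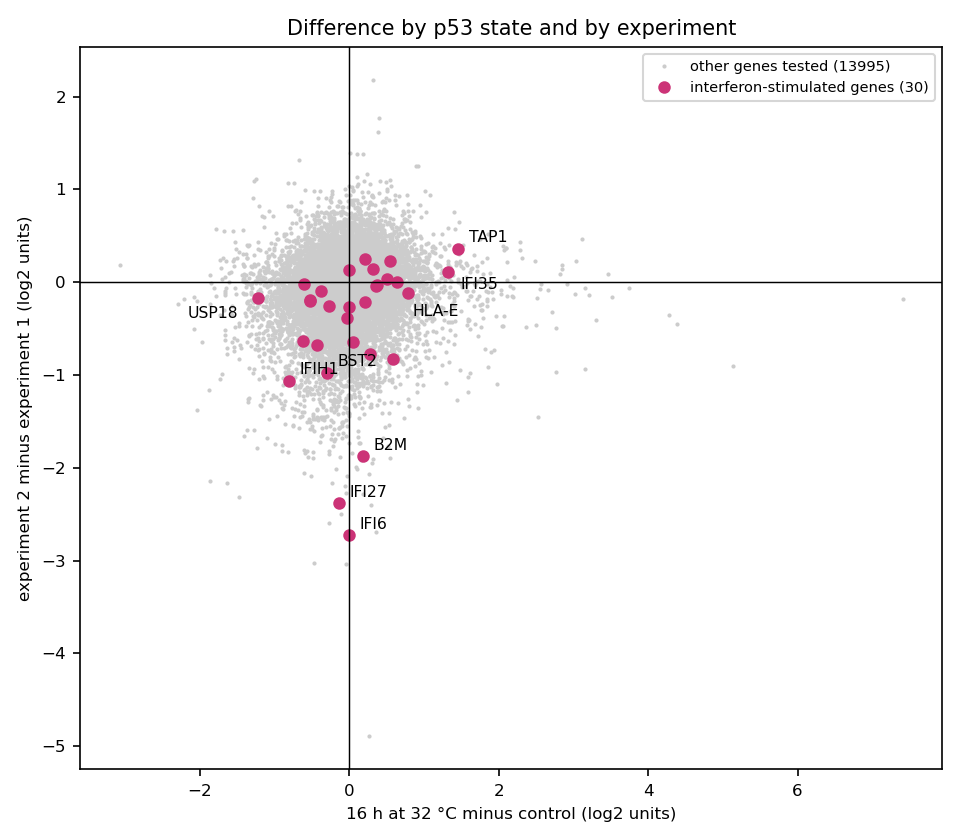
Difference between 16 h at 32 °C and control (horizontal axis, log2 units) against difference between experiment 2 and experiment 1 (vertical axis, log2 units) for the 14025 genes tested, with the 30 interferon-stimulated genes as large points and the other genes as small grey ones. IFI6, IFI27 and B2M lie far down and close to 0 across. TAP1, IFI35 and USP18 lie to the sides, at 0.36, 0.11 and -0.17 in height. IFIH1 is low on both axes, at -0.80 across and -1.06 in height.

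The rest of the interferon pathway was read from a list of 103 further genes, of which 97 were measured and 72 tested. Without the block 0 were called between p53 on and off. With the block 1 was higher, STAT3, and 5 lower, against 5.18% and 6.28% of all genes, so that the shares of the 72 lay near or under the background. With the block and all 18701 genes tested, the called ones among these 6 were STAT3, C6orf150 and NMI. STAT3, the transcription factor of the interleukin 6 family that interferons also activate, stood at 8.75 and 8.71, then 9.74 and 9.58, then 8.70 and 8.74, a rise of 0.93 ± 0.19 (adjusted p = 0.0763 in limma without the block, 0.0116 with it). JAK2, the kinase of the interferon gamma receptor, moved the other way, at 4.11 and 4.17, then 3.46 and 3.47, then 4.60 and 4.56. Its fall was -0.67 (adjusted p = 0.036 with the block), and its rise in recovery 1.12 (adjusted p = 0.0084 with the block). The cytosolic DNA sensor cGAS, under its older symbol C6orf150, stood at 6.90 and 6.55, 5.91 and 5.66, and 6.32 and 6.33, a fall of -0.94 (adjusted p = 0.0132 in limma with the block). NMI, a partner of IFI35, fell by 0.85 while IFI35 rose, TDRD7 fell by 0.74, and IL28B, a type III interferon, fell by 0.79 (adjusted p = 0.017, 0.0387 and 0.0378 in limma with the block). In recovery GBP3, an interferon-induced GTPase, rose by 0.89 (adjusted p = 0.0414 with the block, and not called with all genes tested) and STAT3 fell by 0.94 (adjusted p = 0.0155 with it). With the block, recovery gave 2 of the 72 higher (GBP3 and JAK2) and 1 lower (STAT3), against 3.84% and 3.39% of all genes. These shares are under the background, and 0 of the 72 were called without the block.

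Of 14 interferon genes measured 3 were in the tests, the others being under the signal filter. None of the 5 receptor chains, 4 further interferon regulatory factors, 6 inhibitors and 15 further antigen presentation genes tested was called between p53 on and off, with or without the block. Between the experiments 8 of the 72 were lower and 4 higher, against the same background of 9.94% and 2.72%. NMI was lower in experiment 2 by 1.07 (adjusted p = 0.00252 in limma) and HLA-B, a classical MHC class I heavy chain, by 0.85 (adjusted p = 0.0089). The others called lower were PLSCR1, PTPN2, IFNGR2, APOL1, SOCS1 and MYD88. TRIM5, a restriction factor of retroviral capsids, was higher by 0.82 (adjusted p = 0.0211), as were DTX3L, IL10RB and ERAP2 by 0.60 to 0.69.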

How the data were processed

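The deposited table holds log2 signals per exon-level probe set made by the authors. That scale was judged from the values, and neither the program nor its normalization is given in the sources used here. No scaling was added. Of 257430 probe sets, 224320 carried 1 symbol and were used, with a median of 10 per gene, and 10159 carried several. The probe annotation can be old. The tests used limma (version 3.58.1, R version 4.3.3) over all 6 arrays, with group as the factor, moderated variances and Benjamini-Hochberg adjustment over 14025 genes. The fit was checked on simulated data. The labels' description gives each array an experiment number, which was taken to pair the samples. Deviations of the arrays from their group means correlated within an experiment, at 0.496, 0.551 and 0.63 across genes. The number of arrays limits the precision. The genes named with values on every array were, by rule, those called in any comparison, the 2 of each role with the smallest p between p53 on and off, and 5 core genes; OAS2, MX2, IFITM3, IFI44, TRIM22 and PSMB9 were added after their values were seen. Members and lists were chosen with earlier results of these data known.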

Additional observations from a re-analysis of the deposited data

How the results depend on the processing

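Without the block, in the 3 comparisons of the groups, 0 of the genes were called in either direction under the settings run, apart from those named here. Between p53 on and off, the replicate block called 4 higher and 1 lower, the mean of probe sets in place of the median called 1 higher (TAP1, 1.31, adjusted p = 0.0165), leaving out dim probe sets called 1 higher (TRIM22, 2.14, adjusted p = 0.0285), and quantile normalization called 1 lower (USP18, -1.26, adjusted p = 0.0478). Leaving out dim probe sets keeps those that are bright in a single group. Between recovery and p53 on, the block called 2 higher, and it changed no other call of the 30 genes. Fits joining the block with another choice were added after seeing the data. Between on and off they called 3 higher and 1 lower with no filter (TRIM22 gained, HLA-E and IFITM1 lost), 5 higher and 1 lower with the mean of probe sets (DDX58 and ISG20 gained, IFITM1 lost), 4 higher and 1 lower without dim probe sets (TRIM22 gained, IFITM1 lost), and 3 higher and 0 lower with probe sets of several symbols (HLA-E and USP18 lost). Between recovery and on they called, in that order of settings, 1, 3, 2 and 2 higher and 1, 1, 2 and 0 lower, with USP18 higher in each, TRIM21 in all but the fit with no filter, and TAP1 lower with the mean of probe sets and without dim probe sets. Between recovery and off, TAP1 was called higher with the mean of probe sets (0.68), 1 gene in all. With each array left out in turn, the median difference of the 30 genes ranged from -0.27 to 0.28 for on against off, from -0.22 to 0.24 for recovery against on, and from -0.072 to 0.29 for recovery against off, with 0 called. The median for on against off was 0.14 with the mean of probe sets and 0.16 with no filter, and that for recovery against off was 0.19 with the lowest 50% left out. Between the experiments, 3 genes (B2M, BST2 and IFI6) were called lower when the lowest 50% of genes were left out, which leaves 14 of the genes in the test. When an array was left out, which here takes its whole group out of the comparison, 6 to 8 were called lower. The medians of the 30 genes then ran from -0.21 to -0.17. The median between the experiments was -0.22 with the mean of probe sets, -0.17 without dim probe sets, -0.11 with the lowest 50% left out and -0.16 after quantile normalization. IRF9 was not called with the mean of probe sets (-0.20, adjusted p = 0.331), with probe sets of several symbols, with no filter or after quantile normalization, and without dim probe sets DDX58 stood at -0.43 (adjusted p = 0.0865) and IFIH1 at -0.31 (adjusted p = 0.343). PARP9 was called lower in experiment 2 without either control array (-0.87, adjusted p = 0.0209), with a trend in the variances (-0.64, adjusted p = 0.0412) and with dim levels raised to 3.6 (adjusted p = 0.0426). IFI6, B2M and BST2 were called lower in experiment 2 under every setting run. Except where the setting itself removes genes or arrays, the cause was not tested.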
